A study of Mus musculus with 12 samples.

Results

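The genes of the Sm, LSm and SR proteins of the spliceosome, together with those of the SF3 complexes, the PRPF proteins and the SRRM proteins, were chosen by the start of their symbols (Snrp, Lsm followed by a digit, Srsf followed by a digit, Sf3a, Sf3b, Prpf or Srrm, without pseudogene names). This gave 64 of the 34245 genes in the table. The Sm and LSm class held 25 of them, namely 8 Sm core genes, 4 genes of proteins specific to single snRNPs, and 13 LSm genes. The other class held 39, namely 9 SF3, 13 PRPF, 11 SR, and 6 SRRM genes, 2 of which (Srrm3os and Srrm4os) are non-coding antisense transcripts.

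Blastocysts of F1 hybrid mice (C57Bl6 x CBA/W) were grown in KSOM with amino acids from the E1.5 stage and, from E3.5, in the same medium with the vehicle DMSO (control) or with 20 µM SB220025, which inhibits p38-MAPK (p38-MAPKi). Pools of 30 embryos were collected after 4, 7 or 10 h, with 2 libraries of poly(A) RNA in each of the 6 groups. Values were deposited as log2 RPKM (reads scaled by exonic length and by library size), and the 12 libraries held between 11242313 and 24457312 reads, the fewest in replicate 1 of p38-MAPKi at 7 h. Without a spike-in, levels are relative to the library total. The comparisons at 4, 7 and 10 h do not share controls.

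The spliceosome removes introns from pre-mRNA and is built from small nuclear RNAs bound by proteins. Sm proteins form a ring around most of these RNAs, and the related LSm proteins form a ring on the U6 RNA or, in another combination, in mRNA decay. SF3 proteins belong to the U2 particle and hold the branch site, many PRPF proteins act in the U4/U6.U5 particle, and SR proteins bind exons and recruit the machinery to them.

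The pools carried the markers of the blastocyst. All 7 trophectoderm and all 5 epiblast markers, and 4 of 5 primitive endoderm markers, averaged at least 1 RPKM over the 12 libraries. The most abundant of each list, in the same order, were Krt18 (mean 1169 RPKM), Pou5f1 (427 RPKM) and Gata6 (103 RPKM). Of the cells that could have come along, the 3 cumulus markers had no read in any library, 2 of the 3 blood markers had none, the third (Hba-a1) reached 1.01 RPKM, and the oviduct marker Ovgp1 reached 1.25 RPKM. The summed level of the 5 primitive endoderm markers at 7 h was lower after p38-MAPKi (91.8 and 94.2 RPKM) than in the control (116 and 142 RPKM), without overlap, and most of it was Gata6 (80.9 and 85.0 RPKM against 101 and 129 RPKM). Pdgfra and Gata4 also lay lower without overlap, and Sox17 and Sox7 overlapped. That of the 7 trophectoderm markers overlapped (2434 and 1851 RPKM in the control, 2229 and 2095 RPKM after p38-MAPKi), but in 4 of these (Gata3, Cdx2, Tead4 and Eomes) both treated libraries lay below both controls, as in 38.7% of all genes. At 7 h limma called 0 markers of either list, with 3 of 7 trophectoderm and 1 of 4 tested primitive endoderm markers at an unadjusted p under 0.05 (28.4% of all genes), and voom called 3 and 0 (15.8% of all genes). Of the 5 epiblast markers, Sox2 and Klf2 lay below both controls at 7 h (38.7% of all genes) and Pou5f1 above (23%). Limma and voom called 0 of the 5, and 0 had an unadjusted p under 0.05. At 4 h, 2 trophectoderm markers (Gata3 and Cdx2) lay below both controls (13.7% of all genes) and 3 above (26.8%). At 10 h the same 2 lay below (29.6%) and 1 above (22.6%). The summed primitive endoderm level overlapped at 4 h (95.9 and 118 RPKM in the control, 129 and 96.1 RPKM after p38-MAPKi). At 10 h it was higher after p38-MAPKi (130 and 128 RPKM) than in the control (124 and 120 RPKM), without overlap. Of the 4 tested, Gata6 then lay above both controls (22.6% of all genes) and Gata4 below (29.6%). The part of these differences in the results was not tested. In pooled embryos, fewer cells of a type and less RNA per cell cannot be told apart. The markers also differ in transcript length, which levels at 7 h followed, as given below. Of those lower at 7 h, Gata6 has 3234, Gata4 3374 and Pdgfra 6834 bases, but Tead4 has 520. The part of length in the marker differences was not tested.

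The libraries differed in how a gene's level followed the length of its transcript. With each gene set against its mean in the 6 control libraries, the slope over all genes tested at every time point was -0.32 and -0.26 log2 per doubling of transcript length in the p38-MAPKi libraries at 7 h and -0.25 in replicate 2 of p38-MAPKi at 4 h. In the other 9 libraries it lay between -0.08 and 0.09. Replicate 2 of p38-MAPKi at 4 h thus stood apart from its own replicate (-0.04), and the class medians and correlations with length at 4 h are given with and without it. The same 3 libraries held the fewest genes with a read: 14001 and 16343 in the p38-MAPKi libraries at 7 h and 16751 in replicate 2 of p38-MAPKi at 4 h, against 16824 to 17645 in the other 9. For replicate 2 at 4 h this was so at 21618040 reads, more than in either control at that time (17097676 and 18262011). The part of this in the results was not tested.

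**Figure D1:**
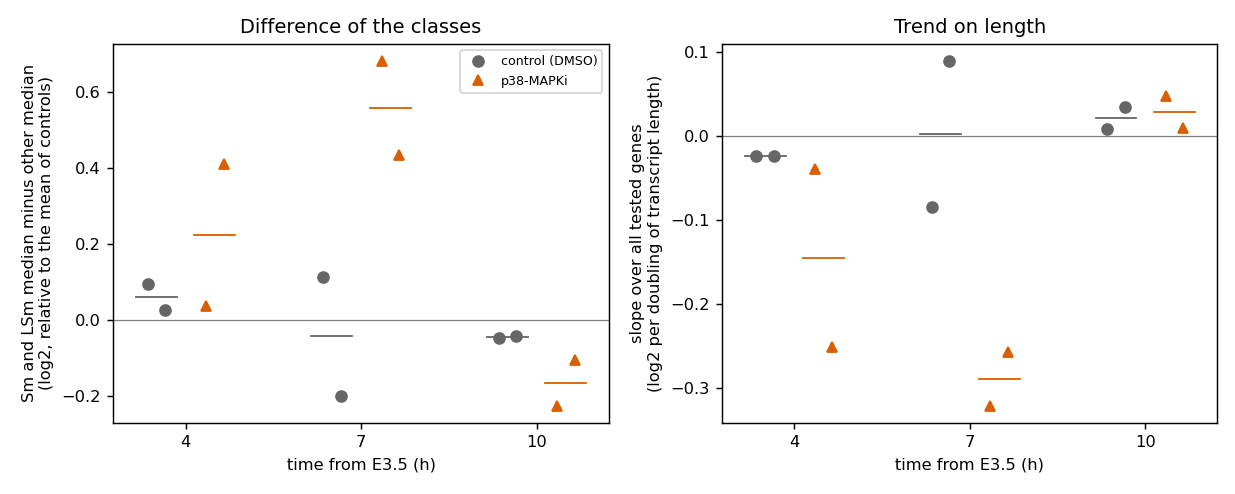
Median of the Sm and LSm members minus the median of the other members in each library (left, log2, relative to the mean of the control libraries) and slope of all tested genes on transcript length (right, log2 per doubling). Points are libraries, with lines at the mean of each pair; the p38-MAPKi libraries at 7 h hold the highest differences, 0.68 and 0.43, and the steepest slopes, -0.32 and -0.26.

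Of the 64 genes, 59 had at least 1 RPKM in 2 or more libraries of each time point and were tested. The SR gene Srsf12, the neuronal splicing regulators Srrm3 and Srrm4, and the transcripts Srrm3os and Srrm4os did not pass, with at most 8 reads in any library. Together the members took 0.884% to 0.987% of the reads of a library. The Sm and LSm genes took 0.259% and 0.220% of the reads in the control at 7 h and 0.346% and 0.324% after p38-MAPKi. The other class took less after p38-MAPKi (0.626% and 0.657%) than in the control (0.695% and 0.748%), so the classes lay in opposite directions and neither overlapped.

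Per kilobase, Snrpb, which encodes the Sm B protein, was the most abundant Sm core gene, with 219 and 211 RPKM in the control libraries at 7 h. Lsm4 led the LSm genes (172 and 128 RPKM), Snrpa1 those of the single snRNPs (54.8 and 51.3 RPKM), Sf3b2 the SF3 genes (97.6 and 123 RPKM), Prpf8 the PRPF genes (80.1 and 102 RPKM), and Srsf2 the SR genes (179 and 199 RPKM). The most abundant SRRM gene over the 12 libraries was Srrm1 (43.6 and 46.4 RPKM in the same libraries). The lengths of the classes differed. The median length of the principal transcript was 1161 bases in the Sm and LSm class (468 in Lsm7 to 6453 in Lsm11) and 3148 bases in the other class (1162 in Srsf9 to 8864 in Srrm2). The median coding length was 378 and 1508 bases.

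At 7 h, limma called 4 of the 59 members at an adjusted p under 0.05, 3 higher after p38-MAPKi (0.932% of all 10940 genes tested) and 1 lower (1.2% of all genes). The higher genes were Snrpf, Snrpg and Lsm7, which encode small ring proteins, and the lower gene was Srrm2, which encodes a large serine and arginine rich protein. Without adjustment, 21 members had a p under 0.05, beside 28.4% of all genes. Both p38-MAPKi libraries lay above both control libraries for 25 members (23% of all genes) and below them for 18 (38.7% of all genes).

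Snrpf (ENSMUSG00000020018.6), an Sm ring protein gene, held 54.7 and 38.4 RPKM in the control at 7 h and 113 and 99.1 RPKM after p38-MAPKi. Both treated libraries lay above both controls. The log2 fold change was 1.21 (standard error 0.207, 95% interval 0.74 to 1.67; limma, adjusted p = 0.0456), and over the alternatives the adjusted p ranged from 0.00135 to 0.267. At 4 h the gene held 48.3 and 50.2 RPKM in the control and 48.6 and 66.0 RPKM after p38-MAPKi, which overlapped. At 10 h it held 47.0 and 43.8 RPKM against 35.1 and 37.4 RPKM, so that the treated libraries were now the lower ones (log2 fold change -0.32; limma, adjusted p = 0.0910).

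Snrpg (ENSMUSG00000057278.8), another gene of the Sm ring, had 43.2 and 35.4 RPKM in the control at 7 h and 101 and 74.9 RPKM after p38-MAPKi. The treated libraries again lay above (log2 fold change 1.15, standard error 0.203; limma, adjusted p = 0.0456, 0.000773 to 0.268 over the alternatives). Its levels at 10 h were 39.6 and 37.6 RPKM in the control and 31.3 and 33.3 RPKM after p38-MAPKi, lower without overlap (log2 fold change -0.26; limma, adjusted p = 0.126).

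The gene of the LSm ring protein Lsm7 (ENSMUSG00000035215.9) had lower levels, with 8.25 and 10.0 RPKM in the control at 7 h and 28.1 and 16.8 RPKM after p38-MAPKi. The treated libraries were the higher ones and differed from each other more than the controls did. The log2 fold change was 1.26 (standard error 0.258; limma, adjusted p = 0.0481, 0.000175 to 0.286 over the alternatives). Between 243 and 505 reads lay on this gene in a library.

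Srrm2 (ENSMUSG00000039218.17), whose protein is a scaffold of nuclear speckles, had 34.9 and 50.9 RPKM in the control at 7 h and 17.2 and 20.9 RPKM after p38-MAPKi. Here the treated libraries were the lower ones, and the log2 fold change was -1.15 (standard error 0.221; limma, adjusted p = 0.0461, 0.000946 to 0.342 over the alternatives). Replicate 2 of p38-MAPKi at 4 h was low as well, with 22.6 RPKM against 38.9 RPKM in its replicate and 37.5 and 40.1 RPKM in the control. Elob, a gene with a mean of 212 RPKM, overlaps Srrm2 on the opposite strand, and although the library kit keeps the strand of the RNA, the sources used here do not state whether counting used it, so reads of Elob may be included in these values.

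None of the 4 calls at 7 h was kept with median centring, quantile normalization, the trend on exonic length, on principal transcript length or on GC content removed, limma without the trend, or without replicate 2 of the control, settings in which 0 members were called and between 11 and 28 (18.6% to 47.5% of the members) had an unadjusted p under 0.05, beside 10.5% to 27.9% of all genes. Quantile normalization called 12 of all 10940 genes and the other settings 0, so the calls were lost over the whole table. Without replicate 1 of the control 8 members were called (3.72% of all genes), Lsm7 not among them, and without replicate 2 of p38-MAPKi 19 were (27.4% of all genes). Voom on recovered reads called 9 members higher (4.93% of all genes) and 6 lower (10.8% of all genes), and the share of the 59 members called lower was close to that of all genes. Over all alternatives the log2 fold changes of the 4 genes called as reported kept their sign. The ranges were 0.80 to 1.46 for Snrpf, 0.84 to 1.37 for Snrpg, 0.63 to 1.62 for Lsm7 and -1.43 to -0.52 for Srrm2. Limma without the trend left these log2 fold changes as they were.

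**Figure D2:**
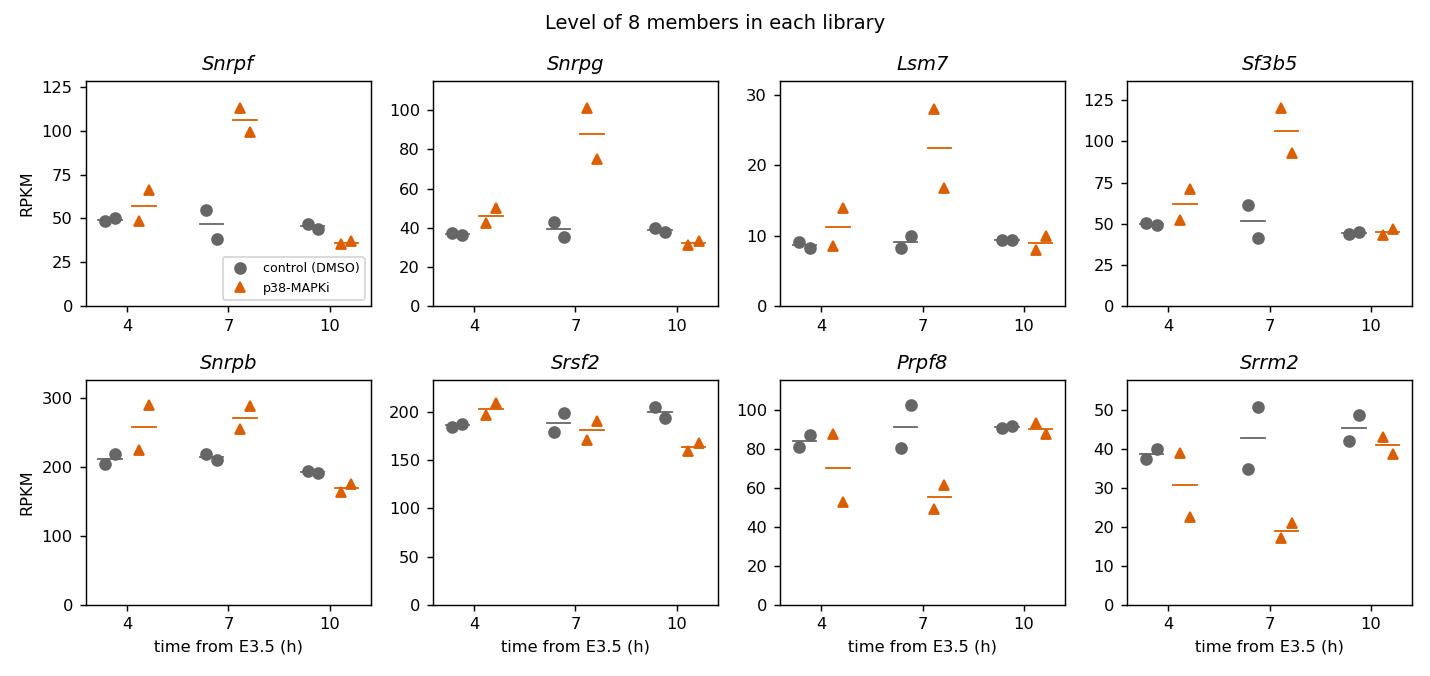
RPKM of 8 members in each library, control (circles) and p38-MAPKi (triangles) at 4, 7 and 10 h, with lines at the mean of each pair. At 7 h the triangles of Snrpf, Snrpg, Lsm7 and Sf3b5 lie above the circles and those of Prpf8 and Srrm2 below them.

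The 100 bases before the RefSeq start (GRCm38.p6) were searched on both strands for 3 motifs in the 50 tested members that matched an entry by symbol. The stretches shown are from the 3 members called higher at 7 h. Whether the motifs have a part in their levels was not tested. These 3 motifs were kept after 5 further ones had been looked for in longer windows before the same members, so the choice was made with the sequences seen. The CCAAT box (letters CCAAT) was present in 5 of 20 Sm and LSm genes and 9 of 30 of the other class, and in 19.6% of all 27025 genes. The GC box (letters GGGCGG) was present in 8 of 20 and 19 of 30 (25.2% of all). The ETS core (letters CCGGAAG) was present in 2 of 20 and 8 of 30 (4.69% of all). The 27025 genes were not limited to those expressed here, whereas the members had passed the filter, so the shares come from unlike sets. The stretches around the match nearest the start, with the match in capitals, are those of Snrpf (chr10:93589693-93589722, minus strand), Snrpg (chr6:86371464-86371493, plus strand) and Lsm7 (chr10:80855210-80855239, minus strand), each 30 bases. Lsm7 holds overlapping matches to the GC box, and the capitals in Snrpg are the CCAAT box read from the other strand. The RefSeq starts differ from those of the annotation behind the expression values, in which Snrpg begins at base 86371304 and Snrpf at base 93589706, so by that annotation the Snrpg stretch lies inside the gene, the Snrpf stretch lies across its start, and only the Lsm7 stretch lies before it.
Snrpf: tctttggtggCCAATcacagaagccgagac
Snrpg: tccgaaggcgATTGGctcgcgcggcggtga
Lsm7: cgcgttagaaaaGGGCGGGGCGGcgcctgc

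Among the 8 Sm core genes, 7 had a log2 fold change above 0 at 7 h (40.1% of all genes), with a median of 0.74 (0.94 with median centring and 0.51 with quantile normalization), against -0.14 for all genes. Snrpb had 219 and 211 RPKM in the control and 255 and 289 RPKM after p38-MAPKi, above without overlap (log2 fold change 0.34, but -0.01 with quantile normalization; limma, adjusted p = 0.236). The lowest value was that of Snrpn, an imprinted gene expressed from the paternal allele that encodes a protein close to Sm B. It held 82.2 and 77.0 RPKM in the control and 76.2 and 78.1 RPKM after p38-MAPKi, which overlapped (log2 fold change -0.04, but 0.15 with median centring; limma, adjusted p = 0.878). Snurf shares the strand and position of Snrpn, and how reads were divided between them is not given in the sources used here.

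The 4 genes of single snRNPs had log2 fold changes between 0.29 (Snrpa, a U1 protein gene) and 0.69 (Snrpa1, a U2 protein gene) at 7 h. Snrpa1 had 54.8 and 51.3 RPKM in the control and 88.9 and 82.2 RPKM after p38-MAPKi. Snrpa had 41.7 and 39.9 RPKM and 43.2 and 57.6 RPKM. In both genes the treated libraries lay above the controls, and neither was called (limma, adjusted p = 0.0559 and 0.338). Gm45213, with a mean of 115 RPKM, lies on the same strand over Snrpa1 (mean 58.3 RPKM), and the division of reads between them is not stated.

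Of the 13 LSm genes, 9 had a value above 0 at 7 h (40.1% of all genes), and the median was 0.32 (0.52 with median centring and 0.42 with quantile normalization, but 0.14 without replicate 1 of p38-MAPKi). Lsm4 had 172 and 128 RPKM in the control and 327 and 242 RPKM after p38-MAPKi, above without overlap (log2 fold change 0.93; limma, adjusted p = 0.0551). The lowest was Lsm10, a protein of the U7 ring that acts in histone mRNA processing, with 12.7 and 8.08 RPKM in the control and 4.81 and 11.1 RPKM after p38-MAPKi. These overlapped widely (log2 fold change -0.47, standard error 0.377; limma, adjusted p = 0.428). Without replicate 1 of p38-MAPKi the value was 0.14, and without replicate 2 it was -1.07 and was called, so the place of Lsm10 as the lowest rested on a library with 51 reads on this gene. At 10 h Lsm10 had 9.86 and 13.9 RPKM in the control and 6.65 and 7.15 RPKM after p38-MAPKi, below without overlap (log2 fold change -0.76; limma, adjusted p = 0.0874). Lsm11, the other LSm protein of the U7 ring and the longest transcript of its class, had 2.86 and 2.92 RPKM in the control at 7 h and 4.36 and 3.08 RPKM after p38-MAPKi (log2 fold change 0.34; limma, adjusted p = 0.458).

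The 9 SF3 genes had a median of -0.28 at 7 h (-0.08 after median centring, -0.41 after quantile normalization, -0.07 without replicate 1 and -0.49 without replicate 2 of p38-MAPKi) and ranged from -0.67 to 1.07. The highest was Sf3b5, which encodes a small protein of the SF3b complex with a coding length of 258 bases, as in Snrpf, in a transcript of 3841 bases. It had 61.3 and 41.5 RPKM in the control and 120 and 92.7 RPKM after p38-MAPKi, above without overlap (log2 fold change 1.07; limma, adjusted p = 0.0501). The lowest was Sf3b4, with 29.7 and 29.4 RPKM in the control and 16.6 and 20.9 RPKM after p38-MAPKi (log2 fold change -0.67; limma, adjusted p = 0.0695). At 10 h Sf3b4 was again below without overlap, with 25.8 and 27.7 RPKM against 21.7 and 20.8 RPKM (log2 fold change -0.33; limma, adjusted p = 0.0921). Sf3b2, the most abundant, had 97.6 and 123 RPKM in the control at 7 h and 103 and 112 RPKM after p38-MAPKi, which overlapped.

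Of the 13 PRPF genes, 11 had a value below 0 at 7 h (59.9% of all genes), and the median was -0.15 (-0.05 with quantile normalization and -0.26 to -0.07 without single libraries, but 0.04 with median centring, 0.18 with the exonic and 0.05 with the principal length trend removed). Prpf8, the large protein at the centre of the U5 particle, had 80.1 and 102 RPKM in the control and 48.9 and 61.6 RPKM after p38-MAPKi, below without overlap (log2 fold change -0.72; limma, adjusted p = 0.0672). The lowest value was that of Prpf40b, with 2.96 and 3.60 RPKM in the control and 1.08 and 2.95 RPKM after p38-MAPKi (log2 fold change -0.87, standard error 0.469; limma, adjusted p = 0.253). It was -0.14 without replicate 1 of p38-MAPKi, which had 60 reads on this gene, and -1.60 without replicate 2, where it was called. The highest was that of Prpf38a, with 15.7 and 15.1 RPKM in the control and 20.3 and 17.1 RPKM after p38-MAPKi (log2 fold change 0.27; limma, adjusted p = 0.353).

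The 10 tested SR genes lay around 0 at 7 h, with 5 above and 5 below and a median of -0.02 (0.18 with median centring and 0.0027 with quantile normalization). Srsf2 had 179 and 199 RPKM in the control and 172 and 191 RPKM after p38-MAPKi, which overlapped. The highest was Srsf3, with 52.9 and 41.6 RPKM in the control and 75.2 and 56.3 RPKM after p38-MAPKi (log2 fold change 0.47; limma, adjusted p = 0.174), and the lowest Srsf5, with 64.9 and 69.6 RPKM against 48.4 and 53.0 RPKM (log2 fold change -0.41; limma, adjusted p = 0.154). Srsf9, the shortest transcript of its class, held 77.9 and 74.996 RPKM in the control and 79.2 and 102 RPKM after p38-MAPKi (log2 fold change 0.24, but -0.03 with the principal length trend removed; limma, adjusted p = 0.415). Srrm1, the other tested SRRM gene, had 43.6 and 46.4 RPKM in the control and 32.3 and 32.3 RPKM after p38-MAPKi (log2 fold change -0.48; limma, adjusted p = 0.108).

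**Figure D3:**
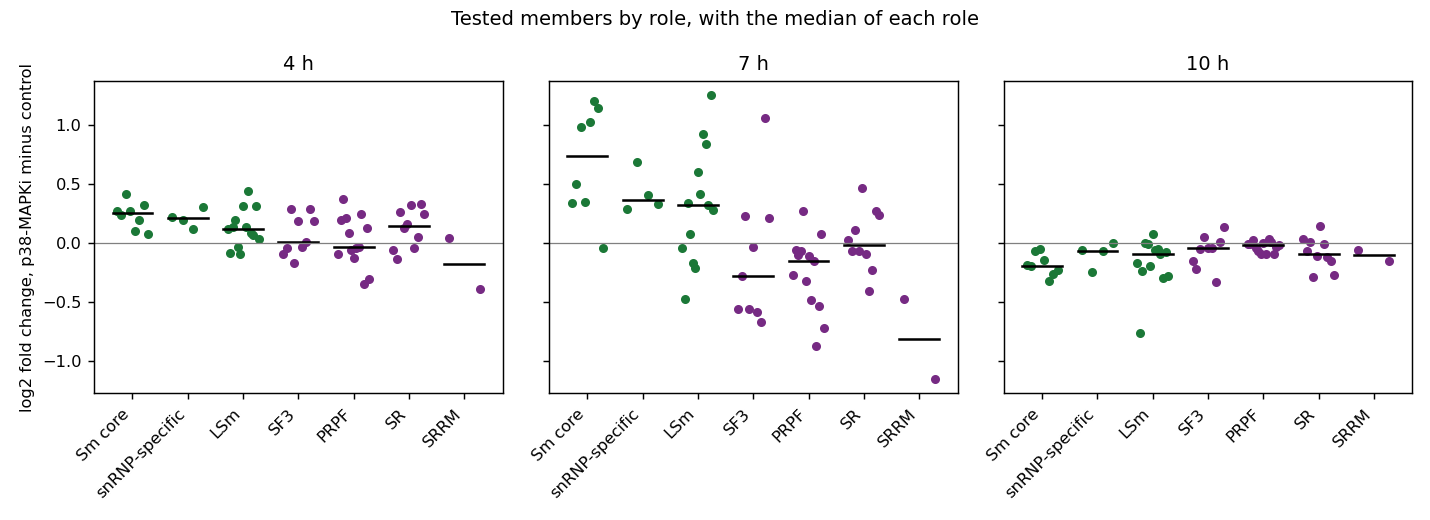
Log2 fold change (p38-MAPKi minus control) of the 59 tested members by role at 4, 7 and 10 h, with a line at the median of each role. At 7 h the Sm core median is 0.74 and the SF3 median -0.28, whereas at 10 h they are -0.19 and -0.04.

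At 4 h limma called 0 of the 59 members (0.621% of all 10781 genes were called higher and 0.288% lower), 2 had an unadjusted p under 0.05 (9.42% of all genes), and voom called 0 (0.315% of all genes). Both p38-MAPKi libraries, the one that stood apart included, lay above the controls for 19 members (26.8% of all genes) and below for 5 (13.7%). The median log2 fold change was 0.19 in the Sm and LSm class (0.04 with quantile normalization and -0.0091 without replicate 2 of p38-MAPKi) and 0.05 in the other class (-0.08 and 0.07), against 0.07 for all genes. Above 0 were 22 of the 25 Sm and LSm genes (60% of all genes), and 12 of them without that library (65.5% of all genes). The difference of the medians was 0.15, with a standard deviation of 0.19 between replicates. It was -0.0764 without replicate 2 of p38-MAPKi and 0.36 without replicate 1.

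At 7 h the medians were 0.35 in the Sm and LSm class, with 20 of 25 genes above 0, and -0.10 in the other class, with 10 of 34 above 0, beside 40.1% of all genes. Without single libraries they were 0.27 to 0.56 and -0.18 to -0.05. In the Sm and LSm class the median was 0.54 and in the other class 0.09 with median centring, which moved the median of all genes from -0.14 to 0.05, and 23 and 19 genes were then above 0 (54.2% of all genes). The difference of the medians, 0.45, does not depend on centring and was larger than the standard deviation between replicates, 0.20. In single libraries, relative to the mean of the controls, the difference was higher after p38-MAPKi (0.68 and 0.43) than in the control (0.12 and -0.20), without overlap. With all libraries it was 0.65 with the ring proteins (Sm core and Lsm1 to Lsm8) alone in the first class. Without replicate 1 of the control it was 0.74, and without replicate 2 of the control 0.35. With the trend on principal transcript length removed it was 0.20, as given below.

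At 10 h limma called 0 members (0.338% of all 10959 genes were called higher and 0.465% lower), and voom called 1 (4.77% of all genes), Srsf2. An unadjusted p under 0.05 was found in 12 members (19.8% of all genes). All 12 were lower, and of all genes 1267 were lower and 905 higher. Both p38-MAPKi libraries lay above the controls for 2 members (22.6% of all genes) and below for 26 (29.6%). Srsf2 had 206 and 194 RPKM in the control and 159 and 168 RPKM after p38-MAPKi (log2 fold change -0.29; limma, adjusted p = 0.0910). Without replicate 1 of the control 1 member was called (0.876% of all genes), Lsm10. The median was -0.14 in the Sm and LSm class (-0.08 with quantile normalization and -0.08 without replicate 1 of the control), with 22 of 25 genes below 0 (54.3% of all genes), and -0.04 in the other class (0.0045 with quantile normalization). The difference of the medians was -0.10, with a standard deviation of 0.06 between replicates.

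With transcript length taken into account, members at 7 h were set beside all tested genes of like length, in bins whose edges were chosen after the pattern of length had been looked at. Below 1000 bases the 11 Sm and LSm members had a median log2 fold change of 0.60, and all 783 genes one of 0.54. Between 1000 and 2000 bases it was 0.69 in 5 Sm and LSm members and 0.22 in 7 of the other class, beside 0.16 in 2375 genes. Between 2000 and 3000 bases these values were -0.04 in 6, -0.07 in 6 and -0.10 in 2387 genes.

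Longer transcripts lay lower in both the members and the background. Between 3000 and 4000 bases the 11 members of the other class had a median of -0.06 and all 1832 genes one of -0.26, and the 2 Sm and LSm members had 0.34. From 4000 to 6000 bases the 5 members, all of the other class, had -0.49 beside -0.42 in 1905 genes. At 6000 bases and above, 5 members of the other class had -0.56 beside -0.61 in 1113 genes, and Lsm11 had 0.34.

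Across genes, which are not independent replicates and share libraries, Spearman's rho between the log2 fold change at 7 h and principal transcript length was -0.544 in 10395 genes and -0.635 in the 59 members. With coding length it was -0.788 in the members, -0.567 in the Sm and LSm class and -0.666 in the other class. Coding length was not correlated over all genes, so this value has no background. At 4 h rho with principal length was -0.441 in all genes and -0.515 in the members, and without replicate 2 of p38-MAPKi it was -0.0852 and 0.0411, so the relation at 4 h rested on this library. At 10 h it was 0.0514 and 0.279.

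Removing the trend on length left different amounts of the difference between the classes at 7 h, by the length used. With the exonic length, over which RPKM is computed, the difference was 0.42 (medians 0.46 and 0.04). With the length of the principal transcript it was 0.20 (medians 0.19 and -0.01). On values with the same trend removed, each gene set against its mean in the 4 libraries, the standard deviation between replicates was 0.18 for the exonic and 0.05 for the principal length. With the principal trend removed the difference in single libraries was -0.08 and -0.14 in the control and 0.15 and 0.07 in the treated pools, without overlap. At 4 h, with all 4 libraries, the difference became -0.02 and -0.0012. With the exonic and the principal trend removed, the role medians at 7 h were 0.63 and 0.49 for Sm core, 0.54 and 0.27 for single snRNPs, 0.46 and 0.15 for LSm, -0.05 and -0.06 for SF3, 0.18 and 0.05 for PRPF, and 0.15 and 0.13 for SR genes. The log2 fold changes of the called members lay nearer to 0, at 0.87 for Snrpf with the exonic and 0.80 with the principal trend removed (1.21 before), 0.97 and 0.84 for Snrpg (1.15 before), 1.08 and 0.63 for Lsm7 (1.26 before), and -0.65 and -0.52 for Srrm2 (-1.15 before), and none was called. Prpf8 went from -0.72 to -0.34 and -0.15, Srrm1 from -0.48 to -0.10 and -0.26, and Lsm4 from 0.93 to 0.64 and 0.56. Farther from 0 lay Sf3b5 (1.20 and 1.36), Lsm10 (-0.78 and -0.83) and Lsm11 (0.67 and 0.86). In all, 31 of 59 members lay nearer to 0 with the exonic trend removed (62.1% of all genes) and 38 with the principal trend removed (63.6% of all genes).

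**Figure D4:**
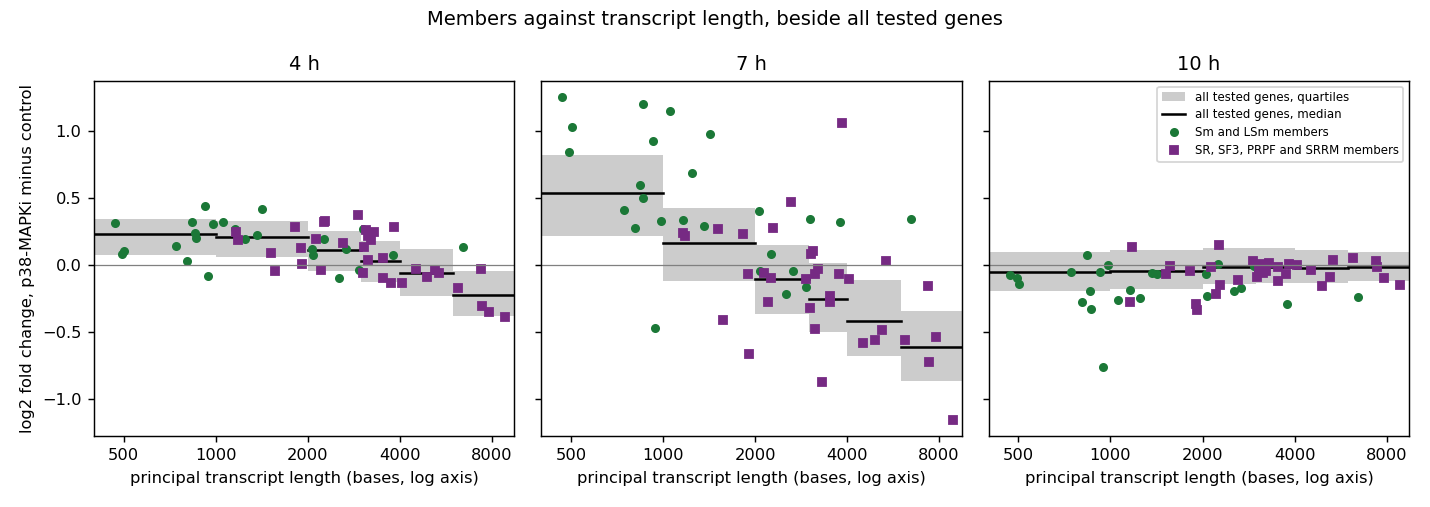
Log2 fold change (p38-MAPKi minus control) of the tested members against principal transcript length in bases (log axis) at 4, 7 and 10 h, Sm and LSm members as circles and the others as squares. Black lines and grey bands give the median and quartiles of all tested genes by length, and at 7 h the median falls from 0.54 below 1000 bases to -0.61 at 6000 bases and above.

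The change between time points was tested as an interaction. These tests share the libraries at 7 h. For 7 h minus 4 h, limma called 0 of 59 members (0.00884% of all 11311 genes), 7 had an unadjusted p under 0.05 (6.83% of all genes), and voom called 0 (0% of all genes). The median difference was 0.25 in the Sm and LSm class, -0.23 in the other class and -0.22 over all genes (0.0035 with median centring). Prpf40b was called without replicate 2 of p38-MAPKi at 7 h (2.6% of all genes), and 0 members without replicate 2 of p38-MAPKi at 4 h.

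For 7 h minus 10 h, limma again called 0 of 59 (0.00877% of all 11400 genes), while 22 had an unadjusted p under 0.05 (26.3% of all genes), and voom called 11 (7.83% of all genes). The smallest adjusted p, 0.0646 by limma, was shared by Snrpf (difference 1.53 on the log2 scale), Snrpg (1.41) and Snrpa1 (0.94). The median difference was 0.53 in the Sm and LSm class, with 23 of 25 genes above 0 (40.3% of all genes), -0.11 in the other class and -0.15 over all genes (0.05 with median centring). Without replicate 1 of the control at 7 h 12 members were called (7.43% of all genes), and without replicate 2 of p38-MAPKi at 7 h 18 were (25.6% of all genes).

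In the control alone, 10 h against 4 h, limma called 0 of 59 members (0.471% of all 10825 genes), 3 had an unadjusted p under 0.05 (15.2% of all genes), and voom called 0 (4.42% of all genes). The unadjusted count was 11 with median centring (16.9% of all genes) and 1 with limma without the trend (12.6% of all genes). The median was 0.0031 in the Sm and LSm class and 0.12 in the other class, beside 0.14 over all genes (0.00039 with median centring). Without replicate 2 of the control at 4 h 4 members were called (10.9% of all genes), Prpf19, Prpf31, Sf3b2 and Sf3b3.

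Genes that work with these proteins were read from further lists, and limma called 0 genes of any of them at any time point. Of all genes it called 0.909% at 4 h, 2.13% at 7 h and 0.803% at 10 h. For the counts that follow, 28.4% of all genes had an unadjusted p under 0.05 at 7 h and voom called 15.8%. The medians that follow are without centring. Median centring moves every gene at 7 h by the same amount, and took the median of all genes from -0.14 to 0.05, across 0. At 7 h the 55 other spliceosome genes had a median log2 fold change of 0.02, with 22 at an unadjusted p under 0.05 and 10 called by voom. The most abundant, Phf5a of the SF3b complex, had 165 and 152 RPKM in the control and 214 and 208 RPKM after p38-MAPKi. The 12 genes of Sm ring assembly had a median of 0.15, with 2 at an unadjusted p under 0.05 and 1 called by voom, and Strap, the most abundant, had 116 and 107 RPKM against 128 and 126 RPKM.

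The 7 tested kinases of SR proteins all had values below 0 at 7 h (59.9% of all genes), with a median of -0.49 (2 at an unadjusted p under 0.05 and 1 called by voom), and in all 7 both p38-MAPKi libraries lay below both controls (38.7% of all genes). Srpk1, the most abundant, had 14.9 and 17.2 RPKM in the control and 11.5 and 12.04 RPKM after p38-MAPKi. The transcripts of the 7 kinases were 1796 (Clk1) to 6491 (Srpk2) bases long, and they were not set beside genes of like length. The 20 hnRNP genes had a median of -0.15 (3 at an unadjusted p under 0.05, 3 by voom), close to that of all genes, and Hnrnpab, the most abundant, had 343 and 410 RPKM against 329 and 343 RPKM. The 8 exon junction genes had a median of 0.34 (4 at an unadjusted p under 0.05, 2 by voom), and Magoh, the most abundant and with a transcript of 692 bases, had 207 and 150 RPKM against 237 and 264 RPKM.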

How the data were processed

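The authors trimmed 50-base single-end reads with Trim Galore 0.4.1, mapped them to GRCm38 with HISAT2 2.0.5, quantified genes in SeqMonk, and deposited log2 RPKM, replicates kept apart. The library kit keeps the strand. Strand option in counting, isoform merging and treatment of reads with several positions are not given in the sources used here, so genes with near-identical copies, as several Sm genes have, are uncertain. The table gives genes that drew no reads a fixed fraction of a single read, from which library totals and whole reads (within 0.05 of a read) were recovered for 34244 of 34245 genes, 31239 with the annotated exonic length and 3005 (6 of them members: Srrm2, Snrpc, Srsf3, Srsf7, Snrpd1 and Sf3b2) with a length searched for until the reads came out whole, which makes these less certain. The deposited log2 values were tested with limma 3.58.1 (lmFit, eBayes with trend) in R 4.3.3, each time point in its own 4 libraries, over genes reaching 1 RPKM in 2 or more libraries, with Benjamini-Hochberg adjustment over all of them at 0.05. At 4 h limma gave all genes the variance of the trend. Scripts were tested on simulated data. Replicates were pools labelled as separate samples, and p-values measure the spread between these pools. Other exonic lengths, and the principal and coding lengths, are from GENCODE M21. Named members were those called, in each role the most abundant and the highest and lowest at 7 h, the longest Sm or LSm and shortest other transcript, and Snrpn; other names were chosen after their values were seen. Members and lists were chosen with earlier results of these data known. Alternatives were no filter, at least 10 RPKM, log2(RPKM + 1), median centring, quantile normalization, removal of the exonic length trend (loess, span 0.5, degree 1), limma without the trend, a joint fit of the 12 libraries, a block for replicate number, voom, each library left out, and other class members. Removal of the principal length or GC trend, voom for the differences between time points and between controls, and the spread between replicates and length correlations recomputed with a trend or library removed, were chosen after seeing the data.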

Additional observations from a re-analysis of the deposited data

Results flagged for a closer look

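The median of the Sm and LSm genes minus that of the other class lay on opposite sides at 7 h and 10 h. It was 0.45 at 7 h, where both p38-MAPKi libraries lay above both controls, and -0.10 at 10 h, where both lay below. The difference between these time points was not tested for the class medians.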

How the results depend on the processing

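The share of all genes called follows each count in parentheses. At 7 h, 4 members were called as reported (2.13%), and 11 with no filter (3.61%), 14 at a minimum of 10 RPKM (18.6%), 9 with log2(RPKM + 1) (4.65%), 19 with one fit over 12 libraries (23.6%), 15 with voom (15.8%), and 0 with median centring, quantile normalization, limma without the trend, or the exonic length, principal length or GC trend removed. Without single libraries it was 0 (0%) to 19 (27.4%). With the replicate number as a block (replicate block), 17 were called at 7 h (18.5%) and 1 at 10 h (3.74%). The counts stayed at 0 at 4 h (0.696%), for 7 h minus 4 h (0%), for 7 h minus 10 h (0.00877%) and between controls (4.95%). Differences of same-numbered libraries correlated across genes at -0.01, 0.16 and 0.17 at 4, 7 and 10 h. Voom called 1 member at 10 h (4.77%) and 11 for 7 h minus 10 h (7.83%). Without single libraries the counts were 0 to 3 (3.82%) at 4 h, 0 to 1 (0.876%) at 10 h, 0 to 1 (2.6%) for 7 h minus 4 h, 0 to 18 (25.6%) for 7 h minus 10 h, and 0 to 4 (10.9%) in the control. The difference of the class medians at 7 h was 0.20 with the principal length trend removed, 0.65 with ring proteins alone, and 0.35 to 0.74 without single libraries. At 10 h it was -0.041 with the principal length trend removed and -0.14 to -0.05 without single libraries, and at 4 h -0.0764 to 0.36. The cause was not tested. Of the log2 fold changes of named members under the alternatives, 909 kept their sign and their side of the threshold, 46 gained and 29 lost a call, 63 that were not called changed sign, and 0 called values changed sign. A fit that leaves out a library assumes that the lone library varies like the other group. The deposited unit is not a count, so depth enters only through the recovered reads.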
